A study of Mus musculus with 2 samples.

Results

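The miR-34 and miR-449 genes share a seed, the bases that guide a microRNA to its targets, and they were followed here through 6 genes among the 2202 microRNA genes counted. Members were taken by symbol: Mir34a, Mir34b, Mir34c, Mir449a, Mir449b and Mir449c. The tissue was cerebral cortex of the left side, taken at 36 days of age from B6CASTF1/J males (hybrids of the C57BL/6J and CAST strains), and the labels name no treatment, allele or transgene. There was 1 group of 2 libraries, replicate 1 from animal number 3 and replicate 2 from animal number 4, made from RNA of under 30 bases. Both carry 1 donor identifier despite the different animal numbers. The p-values below set 1 library against the other, so they measure only counting error between these libraries. The series is a microRNA profile of this tissue and sets no condition against another.

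A microRNA hairpin is cut into a 5′ arm and a 3′ arm of about the same length, and the arm loaded into Argonaute pairs with messenger RNAs through its seed, bases 2 to 8. Mir34a is a direct transcriptional target of the tumour suppressor p53. It restrains the cell cycle and survival genes and has also been studied in neuronal differentiation. Mir34b and Mir34c are made from 1 transcript, and Mir449a, Mir449b and Mir449c lie inside Cdc20b, a gene of multiciliated cells. Both clusters are known for their part in building motile cilia, and they are also high in testis and airway. In the brain, cells with many cilia are found in ependyma and choroid plexus.

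The mature 5p sequences were read from RefSeq (GRCm38.p6), which held hairpins for 5 of the 6 genes and 9 mature entries. Mature sequences of Mir449b and miR-34c-5p were not analysed here, and the counts of sequences below leave them out. The sequences are shown because the shared seed, in capitals, defines the family while the bases after it differ:
miR-34a-5p: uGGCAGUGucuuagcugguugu
miR-34b-5p: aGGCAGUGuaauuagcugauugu
miR-449a-5p: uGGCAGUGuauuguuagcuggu
miR-449c-5p: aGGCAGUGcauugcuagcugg

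Of 1738 mature microRNAs in the table, 4 had GGCAGUG at bases 2 to 8, and 0 of them lay outside the members. A second run, UAGCUG, stood in all 4, at bases 12 to 17 of miR-34a-5p, 13 to 18 of miR-34b-5p and 15 to 20 of both miR-449 sequences. In global alignments, miR-34a-5p was 82.6% identical to miR-34b-5p, 73.9% to miR-449a-5p and 68.2% to miR-449c-5p. miR-449a-5p and miR-449c-5p were 81.8% identical.

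The hairpins of the Mir34b and Mir34c neighbours, with the same letters in capitals, are shown because these neighbours had widely different counts:
Mir34b hairpin: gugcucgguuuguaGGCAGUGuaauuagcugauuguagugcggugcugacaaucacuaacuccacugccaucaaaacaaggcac
Mir34c hairpin: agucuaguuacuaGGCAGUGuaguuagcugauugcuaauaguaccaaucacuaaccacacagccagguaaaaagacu

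The hairpins were 69.8% identical over 86 aligned positions, and their longest shared run was 11 bases. Both figures are for whole hairpins, and a shared run ends at any mismatch. The 5′ arms of Mir34b and Mir34c were not compared alone. The letters GGCAGUG occur anywhere in 17 of 1005 hairpins (1.69%), and in all 5 member hairpins. The 3′ arms do not share 1 seed. Here the seed of each is in capitals:
miR-34a-3p: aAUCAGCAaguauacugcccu
miR-34b-3p: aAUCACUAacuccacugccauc
miR-34c-3p: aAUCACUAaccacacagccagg
miR-449a-3p: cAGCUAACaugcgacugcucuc
miR-449c-3p: cAGUUGCUagcugcacuacccu

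Only miR-34b-3p and miR-34c-3p have a 3p seed in common, and 0 other mature entries hold it. Counted from the 5′ end, miR-34c-3p differs from miR-34b-3p by U11C, C12A, U16A, U21G and C22G, each written with the base of miR-34b-3p first. The tables add both arms of a hairpin together, so which arm the reads came from was not measured. No mature member sequence occurred exactly in another annotated microRNA gene or in another GENCODE transcript, on either strand (0 of 9 sequences). The longest run that a member gene shared with any other microRNA gene was 14 bases, between Mir449a and Mir679, and 11 or 12 bases for the other 5.

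The genes lie at 3 places in mm10. Mir34a is on the plus strand of chromosome 4, from 150068454 to 150068555, and its last 17 bases overlap an exon of Gm37795, a model that the annotation puts in its TEC class of unproven transcripts. Mir34b (51103562 to 51103645) and Mir34c (51103034 to 51103110) are on the minus strand of chromosome 9, 451 bases apart, in an intron of Btg4, which is read from the other strand. Mir449c (113035983 to 113036091), Mir449b (113037419 to 113037498) and Mir449a (113037534 to 113037624) are on the plus strand of chromosome 13, in introns of Cdc20b on the same strand. Mir449b and Mir449a are 35 bases apart.

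Replicate 1 held 4273791 reads counted on the strand of a microRNA gene and replicate 2 held 4010274. Levels are in CPM, these counts scaled to 1000000 per library, with intervals that cover counting error only (exact Poisson, 95%). Across 516 genes the coefficient of variation between the libraries beyond counting error was 43.7%, as the square root of edgeR's common dispersion. The cortical label was checked on 12 neuronal microRNA genes, which summed to 92636 and 61304 CPM in replicates 1 and 2. Mir132 alone gave 54937 and 30022 CPM of these sums. Of the 12 genes, 9 reached 10 CPM in both libraries, as did 300 of all 2202 genes. The exceptions were Mir124a-1, Mir124a-2 and Mir124a-3, copies that all give the neuronal miR-124, with at most 20 counts in a library and 0 in both for Mir124a-2. Where several genes give 1 mature sequence, the count of a gene is uncertain, since reads that map to several places are left out. That also holds for Mir138-2, Mirlet7f-2, Mir30c-1, Mir16-1, Mir194-1, Mir194-2 and the Mir9 genes below. It holds too for Mir128-1, Mir128-2, Mir138-1, Mir129-1, Mir129-2, Mir219a-1 and Mir219a-2, so the neuronal and oligodendrocyte sums are uncertain.

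Mir34a was by far the most abundant member. It had 13682 counts in replicate 1, or 3201 CPM (3148 to 3255), and 13326 in replicate 2, or 3323 CPM (3267 to 3380). The mean was 3262 ± 86.0 CPM (SD, n = 2), the 53rd highest of 2202 genes. Among the 782 genes with any count, 93.2% lay below it. In bulk tissue, a low level in each of many cells cannot be told apart from a high level in few.

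Of the ciliated-cell genes, Mir34c came next. It had 946 counts in replicate 1 (221 CPM, 207 to 236) and 646 in replicate 2 (161 CPM, 149 to 174). Its mean of 191 ± 42.6 CPM (SD, n = 2) put it in place 172. Mir449a followed in place 246, with 177 counts (41.4 CPM, 35.5 to 48.0) and 152 counts (37.9 CPM, 32.1 to 44.4), a mean of 39.7 ± 2.48 CPM (SD, n = 2).

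Mir34b was close to the limit of these libraries. It had 12 counts in replicate 1 (2.81 CPM, 1.45 to 4.90) and 11 in replicate 2 (2.74 CPM, 1.37 to 4.91), and stood in place 422 with a mean of 2.78 ± 0.0459 CPM (SD, n = 2). Mir449b and Mir449c had 0 counts in both libraries, and at these depths the limit of 3 counts set for a count of 0 is worth 0.702 and 0.748 CPM (the upper ends of the two-sided Poisson intervals are 0.863 and 0.920 CPM). Mir34a, Mir34c and Mir449a, 3 of the 6 members, thus reached 10 CPM in both libraries, as did 300 of all genes.

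**Figure D1:**
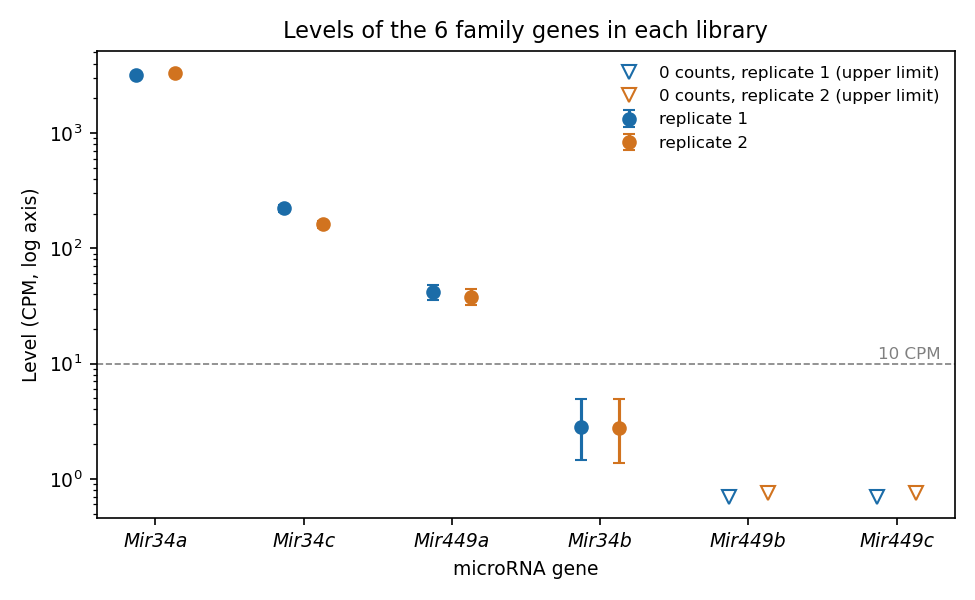
Level in CPM (log axis) of each family gene, with 1 point per library and bars for the exact 95% Poisson interval. Open triangles mark 0 counts, drawn at the limit of 3 counts (0.702 and 0.748 CPM) and not at the Poisson interval. Mir34a lies near 3262 CPM, and Mir34b lies under the dashed line at 10 CPM.

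The order Mir34a, Mir34c, Mir449a, Mir34b was the same in both libraries, and within each library the counting interval of a gene did not overlap that of the next. Within a library, where scaling cancels, Mir34a exceeded Mir34c by 14.5-fold (exact 95% binomial interval 13.5 to 15.5) in replicate 1 and by 20.6-fold (19.1 to 22.4) in replicate 2. The intervals do not overlap, so this ratio differed between the libraries by more than counting error. Mir34c exceeded Mir449a by 5.34-fold (4.55 to 6.31) and 4.25-fold (3.56 to 5.11), and these intervals overlap. These folds compare reads per gene, each read standing for 1 short RNA of the selected size. Divided by gene length, the levels kept the same order, at 2589, 201, 35.3 and 2.67 on a length-scaled per-million scale.

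The 6 genes together reached 3467 and 3525 CPM in replicates 1 and 2, or 0.347% and 0.352% of the counts. Mir34a made up 92.3% of the family in replicate 1 (exact 95% binomial interval 91.9 to 92.8) and 94.3% in replicate 2 (93.9 to 94.7). The chromosome 9 pair gave 224 and 164 CPM and the chromosome 13 trio 41.4 and 37.9 CPM. The members of both ciliated-cell clusters therefore held 7.66% and 5.72% of the family's counts.

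**Figure D2:**
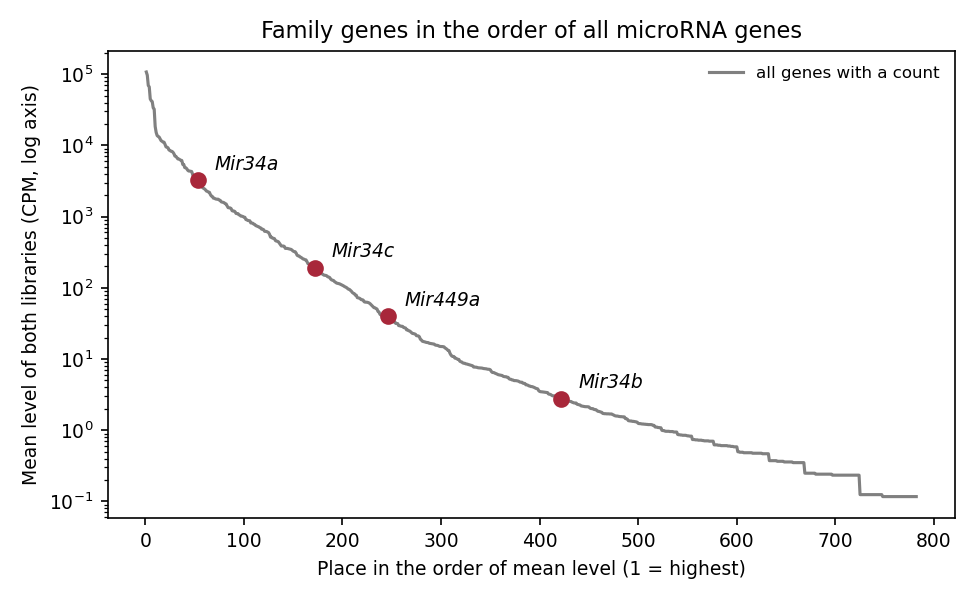
Mean CPM of both libraries (log axis) for every gene with a count, from the highest to the lowest, with the 4 counted family genes marked. Mir34a stands in place 53, Mir34c in 172, Mir449a in 246 and Mir34b in 422.

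Neighbouring genes of 1 cluster had unequal counts. Mir34c had 78.8 times the counts of Mir34b in replicate 1 (exact 95% binomial interval 44.9 to 153) and 58.7 times in replicate 2 (32.6 to 118). The intervals overlap, so the ratio did not differ between libraries beyond counting error. Mir449a had at least 59.0 times the counts of Mir449b in replicate 1 and at least 50.7 times in replicate 2, with the limit of 3 counts per library set for the 0 of Mir449b and no allowance for counting error in Mir449a. The same bounds hold against Mir449c, whose counts were also 0. Where a cluster had counts at all, they came nearly wholly from the gene farthest along the strand: Mir34c on chromosome 9 and Mir449a on chromosome 13. Reads that mapped to several places, 42.8% and 39.9% of all reads in replicates 1 and 2, are not in the gene counts, and their part in these ratios was not tested. The longest run that Mir34b, Mir449b or Mir449c shares with another microRNA gene was 11 or 12 bases. That search covered annotated microRNA genes only and not the rest of the genome, so it cannot show where their reads map.

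**Figure D3:**
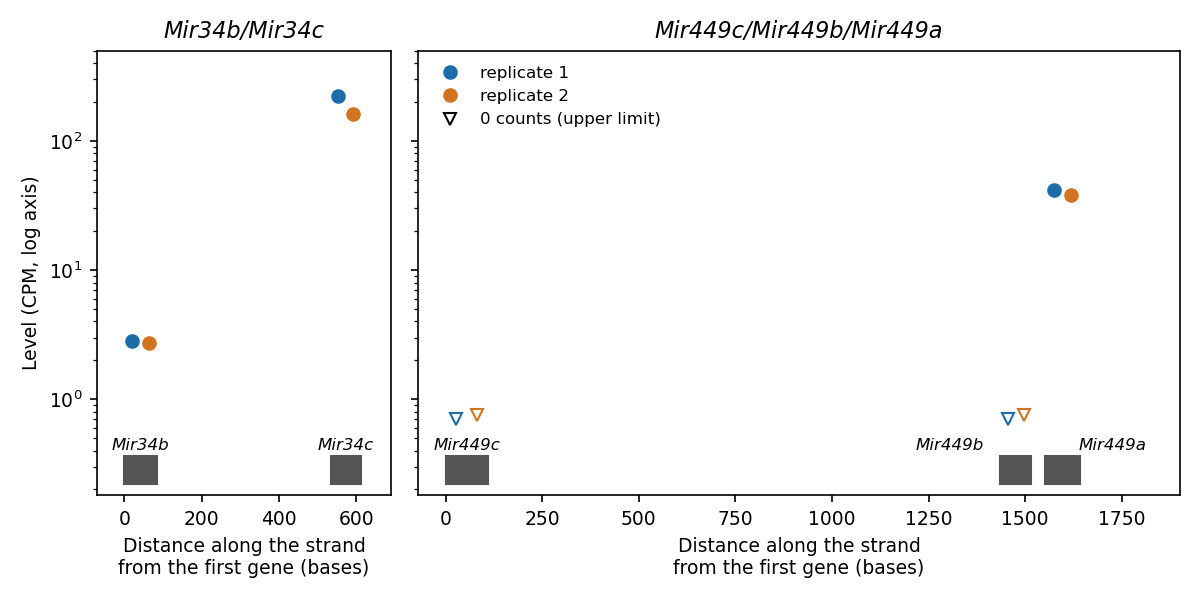
Level in CPM (log axis) against distance along the strand from the first gene (bases), for the chromosome 9 pair (left) and the chromosome 13 trio (right), on 1 horizontal scale. Grey boxes are the genes, points are libraries and open triangles mark 0 counts at the limit of 3 counts. Mir34c lies at 221 and 161 CPM and Mir34b at 2.81 and 2.74 CPM.

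The libraries were compared gene by gene with an exact two-sided binomial test scaled by edgeR's TMM factors, with Benjamini-Hochberg adjustment over 516 genes that had 10 or more counts. It compares these 2 libraries, not conditions. Of the 4 members tested, 1 was higher in replicate 2 and 1 lower. Of all genes tested, 57.9% were called in either direction, 27.5% higher and 30.4% lower. The members' share was thus near that of all genes tested. The median log2 ratio was -0.041 over the 4 members and -0.036 over all genes tested.

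Mir34a, at 3201 and 3323 CPM, was called higher, with a log2 ratio of 0.094 (0.060 to 0.13; adjusted p = 2.42e-07 in the exact binomial test). Over 309 deeply counted genes (a minimum of 100 counts), the absolute log2 ratio had a median of 0.46, and 13.9% of them differed less between the libraries than Mir34a did. Mir34c, at 221 and 161 CPM, was called lower, with a log2 ratio of -0.42 (-0.56 to -0.27; adjusted p = 3.42e-08 in the exact binomial test), and 44.0% of those genes differed less. Mir449a had a log2 ratio of -0.088 (-0.41 to 0.23) and Mir34b one of 0.0066 (-1.32 to 1.31), and neither was called (adjusted p = 0.71 and 1 in the exact binomial test). For Mir34b, the interval allows more than a 2-fold difference either way. No member passed when an absolute log2 ratio of 1 or more was also required, a rule that 19.4% of all genes tested met.

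**Figure D4:**
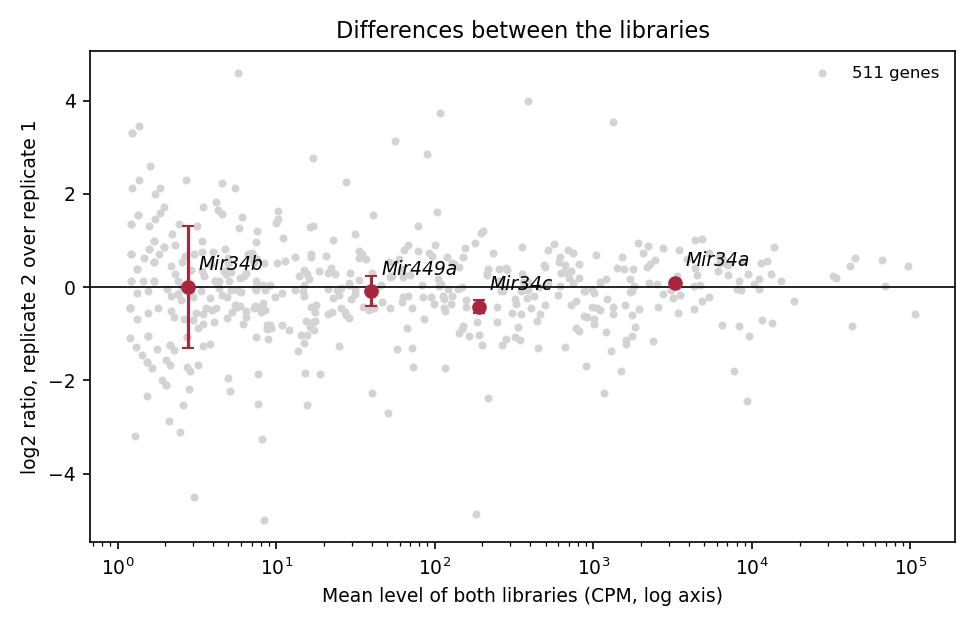
log2 ratio of replicate 2 over replicate 1 against mean CPM (log axis) for 511 tested genes with counts in both libraries (grey), with family genes in red and exact 95% intervals. Mir34a lies at 0.094 and Mir34c at -0.42, inside the cloud of genes of like level.

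Markers of the cells that could hold the ciliated-cell members were read beside them. The ciliated-cell list is the 5 members other than Mir34a, so its sum repeats their levels and is no separate marker. No other microRNA gene of multiciliated cells was read. These 5 members summed to 266 and 202 CPM in replicates 1 and 2, and Mir34c gave most of both sums. The choroid plexus list summed to 458 and 391 CPM, from Mir204 at 456 and 390 CPM, while Mir211 had 9 and 4 counts. Mir204 is also made by other cells. It was called lower in replicate 2, with a log2 ratio of -0.18. The neuronal list summed to 92636 and 61304 CPM. Of its 11 tested genes, 7 were lower and 3 higher, against 30.4% lower and 27.5% higher among all genes tested. The part of these cell types in the difference at Mir34c was not tested. The testis list, whose germ cells are rich in miR-34b/c and miR-449, summed to 0.936 and 0 CPM, with 3 of its 5 genes in the table at 0 in both libraries.

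Other cell types were represented too. Sums in replicates 1 and 2 were 11394 and 10799 CPM for endothelial Mir126a, 5178 and 7691 for the mural list, 5098 and 3543 for the oligodendrocyte list and 2228 and 2065 for the microglia and leukocyte list. The miR-9 genes of progenitors and astroglia gave 94.5 and 75.6 CPM. This sum is uncertain, since these genes give 1 mature sequence and reads that map to several places are left out. Red-cell genes summed to 83.5 and 794 CPM and other epithelial genes to 138 and 386 CPM. Both sums were larger in replicate 2. Single genes led them, Mir451a (47.0 and 726 CPM) and Mir200c (15.4 and 201 CPM). Of 3 red-cell genes tested, 2 were higher and Mir486 had no call. Of 5 epithelial genes tested, 4 were higher and Mir200b lower, against 27.5% higher and 30.4% lower of all genes tested. All these sums are of gene-strand counts. With unstranded counts, the sums of Mir126a, the oligodendrocyte list and the red-cell list had means of 0.387, 0.126 and 30.0 CPM.

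Genes of like level to Mir34a were sought by the Euclidean distance of log2(CPM + 1) over the 2 libraries. The nearest were Mir138-2, a gene of the neuronal miR-138, at a distance of 0.123, and Mir485 at 0.156, then Mirlet7f-2 at 0.24 and Mir342 at 0.241. In the order of means, Mir138-2 (3138 and 3610 CPM) stood just above Mir34a and Mirlet7f-2 (3457 and 2867 CPM) just below. Both ranges cover that of Mir34a, so these neighbours were not told apart. Mir34c stood between Mir30c-1 (123 and 266 CPM) and Mir496a (256 and 122 CPM), whose libraries spread more widely than its own. Mir449a stood between Mir142 (40.5 and 39.1 CPM) and Mir7044 (45.6 and 31.7 CPM), again with overlapping values.

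Mir34a is one of several microRNA genes that p53 raises, by transcription or by faster processing, and 11 others were read as a list. Of these, Mir143 and Mir145a are also the mural list, and Mir200c and Mir141 are also on the epithelial list. On the list, 7 reached 10 CPM in both libraries. Mir143, a smooth muscle gene whose processing p53 promotes, stood above Mir34a at 4892 and 7484 CPM. Mir107, which lies in an intron of Pank1, stood at 2946 and 5783 CPM, lower than Mir34a in replicate 1 and higher in replicate 2. The next, Mir15a, had 570 and 427 CPM, and its neighbour Mir16-1, which with it limits Bcl2, had 372 and 283 CPM. Mir145a had 286 and 208 CPM.

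The remaining p53-linked genes were scarce in at least 1 library. Mir200c, which represses the Zeb factors in epithelia, had 15.4 and 201 CPM. Its partner Mir141 had 0 and 48 counts. Mir194-2 had 21.5 and 25.4 CPM and Mir192, of the same cluster, 11.5 and 5.98 CPM. Mir215 had 5 and 3 counts, and Mir194-1 had 0 in both libraries.

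Between the libraries these genes did not move one way. Of 9 tested, 4 were higher in replicate 2 and 4 lower, against the 27.5% and 30.4% of all genes tested. The median log2 ratio was -0.037 over the 8 with counts in both. Higher were Mir143 at 0.65 (0.63 to 0.68), Mir107 at 1.01 (0.98 to 1.04), Mir200c at 3.75 (3.38 to 4.13) and Mir141, with a lower bound of 3.78 from its interval. Lower were Mir15a at -0.38 (-0.47 to -0.29), Mir16-1 at -0.36 (-0.47 to -0.24), Mir145a at -0.42 (-0.55 to -0.29) and Mir192 at -0.90 (-1.67 to -0.17). The value for Mir194-2 was 0.28 (-0.14 to 0.70), which did not pass.

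**Figure D5:**
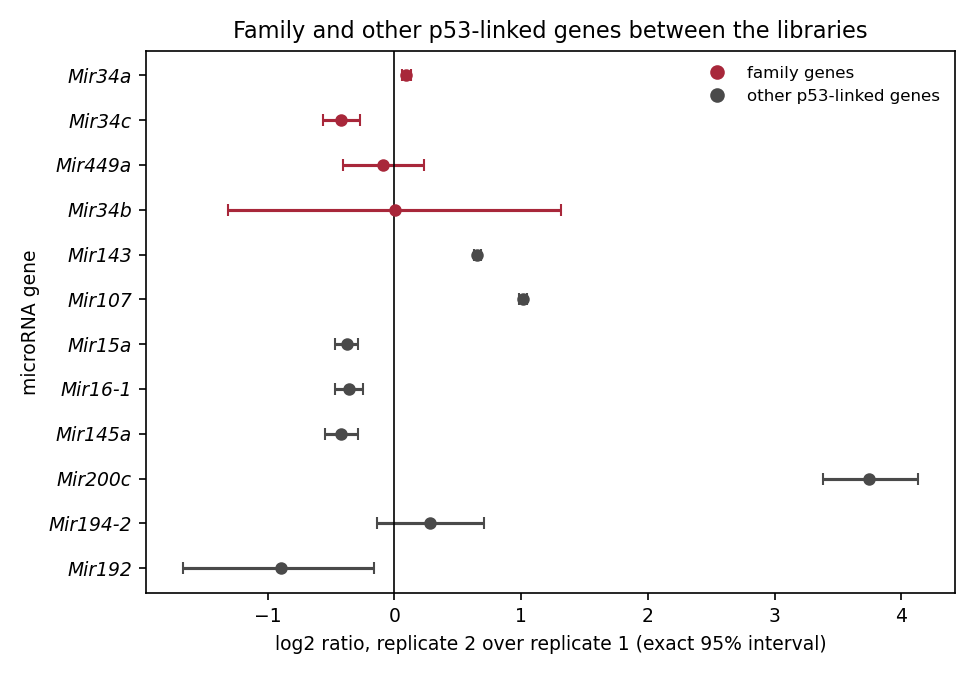
log2 ratio of replicate 2 over replicate 1, with exact 95% intervals, for the 4 tested family genes (red) and 8 other p53-linked genes with counts in both libraries (grey). Mir34a lies at 0.094, between Mir200c at 3.75 and Mir192 at -0.90.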

How the data were processed

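MicroRNA reads from 2 libraries of 1 group were analysed. The values are raw read counts per gene on GENCODE M21 microRNA genes, mapped to mm10, per the text files deposited beside the tables. Aligner, counter, versions and trimming were not given in the sources used here. Without a header, the 3 count columns were read from their values as either strand, gene strand and opposite strand. The 4 entries that name no gene were left out of totals (multi-mapped, unmapped and unassigned reads), and gene-strand counts were used. All 6 members were found by symbol.

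CPM was computed over gene-strand counts. Of 2202 genes, the 516 with 10 or more counts were tested with an exact binomial test against TMM effective sizes (edgeR 4.0.16, R 4.3.3), called at an adjusted p under 0.05. Intervals are exact, at 95%. A quasi-likelihood fit needs a contrast, which 1 group lacks. Alternatives used DESeq2 1.42.0 size factors, total counts, other minimums, unstranded counts, other totals, pseudocounts and gene length. Python 3.11.15, SciPy 1.17.1, pandas 2.3.3, Matplotlib 3.10.9 and Biopython 1.88 (match 1, mismatch -1, gap opening -2, extension -1) were used. The test was tried on simulated data with counting error only, so that trial did not cover the wider spread between these libraries. Mature and hairpin sequences are from RefSeq.

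Named are the 6 members, 11 other p53-linked genes, the most abundant genes of the cell type lists (4 at most, mostly given here by list sums only), the neighbours of detected members in the order of levels, the 4 genes nearest to Mir34a, other microRNAs with the seed and host genes. Mir124a and Mir211 genes were named after their low values were seen. The members and lists were chosen with earlier results of these data known. Of the listed symbols, Mir142hg and Mir465a did not match the tables.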

Additional observations from a re-analysis of the deposited data

Results flagged for a closer look

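Reads on the opposite strand of Mir34b were looked at because no comparison above uses that column, and they exceeded the limit of 3 counts that a count of 0 allows. There were 8 beside 12 gene-strand counts in replicate 1, or 40.0% of both (exact 95% binomial interval 19.1 to 63.9), and 5 beside 11 in replicate 2, or 31.3% (11.02 to 58.7). The strand is that of Btg4. The other 5 members had 0 opposite-strand reads in all. Among the 2138 genes with no microRNA gene annotated across from them, 47 had any such read and 4 had over 3 in each library: Mir3083, Mir5620, Mir34b and Mirlet7b, named after their values were seen. Where these reads came from was not tested.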

How the results depend on the processing

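With 2 libraries, leaving one out only returns the value of the other, given above, and leaves no log2 ratio, so it says nothing on stability. The bounds of Mir449a over its neighbours were not rerun, since those have 0 counts. Totals without Mir139, the most abundant gene, gave 3656 CPM for Mir34a, 3.11 for Mir34b, 44.5 for Mir449a and 3918 for the family. Totals over all reads gave 1153 for Mir34a, 67.8 for Mir34c, 14.0 for Mir449a, 0.982 for Mir34b, 1236 for the family, 82.8 for the ciliated-cell list and 27310 for the neuronal list. Unstranded counts gave 3519 CPM for Mir34a, 42.8 for Mir449a, 4.67 for Mir34b and 3772 for the family, and lowered the ratio of Mir34c over Mir34b from a mean of 68.8 to 43.8, since they add the opposite-strand reads. They also took the sums of Mir126a from 11097 to 0.387 CPM, of the oligodendrocyte list from 4320 to 0.126 and of the red-cell list from 439 to 30.0. Mir126a, all 3 oligodendrocyte genes, Mir451a and Mir486 overlap a microRNA gene on the other strand. Length scaling gave 2589 for Mir34a, 35.3 for Mir449a, 2.67 for Mir34b and a Mir34a share of 91.5% against 93.3%. The log2 ratio of Mir34b changed sign, with no call, to -0.034 with total counts, -0.22 with unstranded counts and -0.025 and -0.029 with pseudocounts of 1 and 0.5. With those pseudocounts that of Mir34a was 0.054, the value that total counts also gave. The pseudocounts were added to CPM, which is scaled by total counts and not by TMM. The calls of Mir34a (higher) and Mir34c (lower) held under DESeq2 size factors, total counts, both other minimums and unstranded counts. With an absolute log2 ratio of 1 also required, 40 genes were higher in replicate 2 and 60 lower, against 142 and 157. At under 15 counts a library, Mir34b allows no finer comparison.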
